A study of Mus musculus with 8 samples.

Results

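The genes described here are the classical cadherins and the non-clustered protocadherins of the mouse, taken as every gene whose symbol is Cdh or Pcdh followed by a number, with an x allowed after a protocadherin number. The rule left out the large protocadherin alpha, beta and gamma clusters and found 35 members, 23 cadherins and 12 protocadherins, among 55414 listed gene IDs. Their transcripts were measured by RNA-seq of whole dorsal root ganglia (DRG), in which the cell bodies of the somatosensory neurons of the body lie, from embryos at E18.5. The overexpression group (AD1 OE, n = 4 libraries) had the genotype AdvillinCre/+;Rosa26Dach1/+, and the Control group (n = 4 libraries) had the genotype Advillin+/+;Rosa26Dach1/+. Every embryo thus carried the conditional Dach1 transgene at Rosa26, and only AD1 OE also carried the Cre recombinase, which is driven from the Advillin locus and is active in sensory neurons. The comparison asks which transcripts differ when Dach1, a transcription factor that is normally restricted to some of these neurons late in embryogenesis, is expressed again across them after that restriction. The labels name neurons and glia as the cells of the sample and give neither the strain nor the sex. The study describes the replicates as embryos, whereas the labels do not say whether each library came from 1 embryo, so p-values measure the spread between these libraries.

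Cadherins are transmembrane proteins whose extracellular repeats bind calcium and join cells that display matching molecules. Classical cadherins are anchored to actin through catenins and fall into a type I group, which gives strong adhesion, and a larger type II group, whose members are displayed in combinations by different sets of neurons and help them to sort, grow and choose partners. Non-clustered protocadherins lack the catenin-binding tail, adhere weakly and act largely through their cytoplasmic domains, among them the binding of the actin-regulating WAVE complex by delta-2 members.

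The libraries held 22339059 to 44025625 counts. Dach1 stood at 91.5 to 102 CPM (counts scaled to the size of the library) in the AD1 OE libraries and at 30.2 to 33.7 CPM in the Control libraries, so the labels and the target gene went together. Avil, the gene that carries the Cre, averaged 464 CPM with the Cre and 892 CPM without it. In the study the Rosa26 allele carries EGFP together with Dach1, and EGFP was not measured here. The groups thus differed in the Cre, in Avil and by design in EGFP as well as in Dach1. These cannot be told apart for any member. The 8 sensory neuron markers and the 8 glial markers were all detected, summing to 7186 to 7881 CPM and 1253 to 1565 CPM over all libraries. Xist and Y-linked genes put AD1 OE replicate 3 and Control replicates 1, 2 and 3 with the females and the other 4 libraries with the males, so that sex was unevenly spread over the groups.

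Transcripts of most members were present in the ganglia, and their levels spanned a wide range. Per kilobase of exon, Cdh11, a type II cadherin best known from mesenchymal cells, was the highest member in Control at 37.2 ± 1.54 CPM per kb (SD, n = 4), and its libraries did not overlap those of any other member. The next were Pcdh1 at 27.3 ± 1.79 CPM per kb, Cdh1, the E-cadherin of epithelia, at 25.3 ± 3.49 CPM per kb, and Cdh5, the VE-cadherin of endothelial junctions, at 25.1 ± 0.634 CPM per kb. Neighbours among these 3 overlapped between libraries and cannot be ordered. Pcdh9 (13.5 ± 0.518 CPM per kb), Cdh19, a cadherin of Schwann cell precursors (12.8 ± 1.39 CPM per kb), and Cdh2, the N-cadherin of neural tissue (12.6 ± 0.225 CPM per kb), formed a second tier whose neighbours overlapped as well. Each of these 3 was below Cdh5 in every library. Pcdh7 followed at 9.55 ± 0.432 CPM per kb and did not overlap Cdh2 above it or Cdh6 below it, which stood at 8.06 ± 0.288 CPM per kb.

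The other members lay lower on the same per-kilobase scale. In Control, Cdh8 averaged 7.08, Cdh24 6.18, Pcdh10 6.15 and Pcdh17 5.82 CPM per kb, and neighbours among these 4 overlapped. Cdh4, Pcdh18, Cdh18, Cdh3 and Cdh13 followed between 4.83 and 3.72 CPM per kb, again with overlap from each to the next. Cdh12, Cdh9, Pcdh19, Cdh10, Pcdh12, Cdh20, Pcdh11x, Cdh15, Pcdh8 and Cdh7 ranged from 2.93 down to 1.04 CPM per kb, and 6 members (Pcdh15, Cdh22, Cdh17, Pcdh20, Cdh26 and Cdh23) stood between 0.334 and 0.0876 CPM per kb.

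Of the 35 members, 33 passed the filter on low counts. The 2 that did not were Cdh16, the cadherin of kidney tubules, with 0 to 4 counts in a library, and Cdh26, with 4 to 20 counts. Cdh23 and Pcdh15, which together build the tip links of inner ear hair cells, passed at low levels, Cdh23 with 0.980 to 1.92 CPM in AD1 OE and 1.22 to 1.74 CPM in Control. Pcdh15 gave 8.03 to 10.4 CPM in AD1 OE and 7.10 to 9.13 CPM in Control, and the groups overlapped for both genes.

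**Figure D1:**
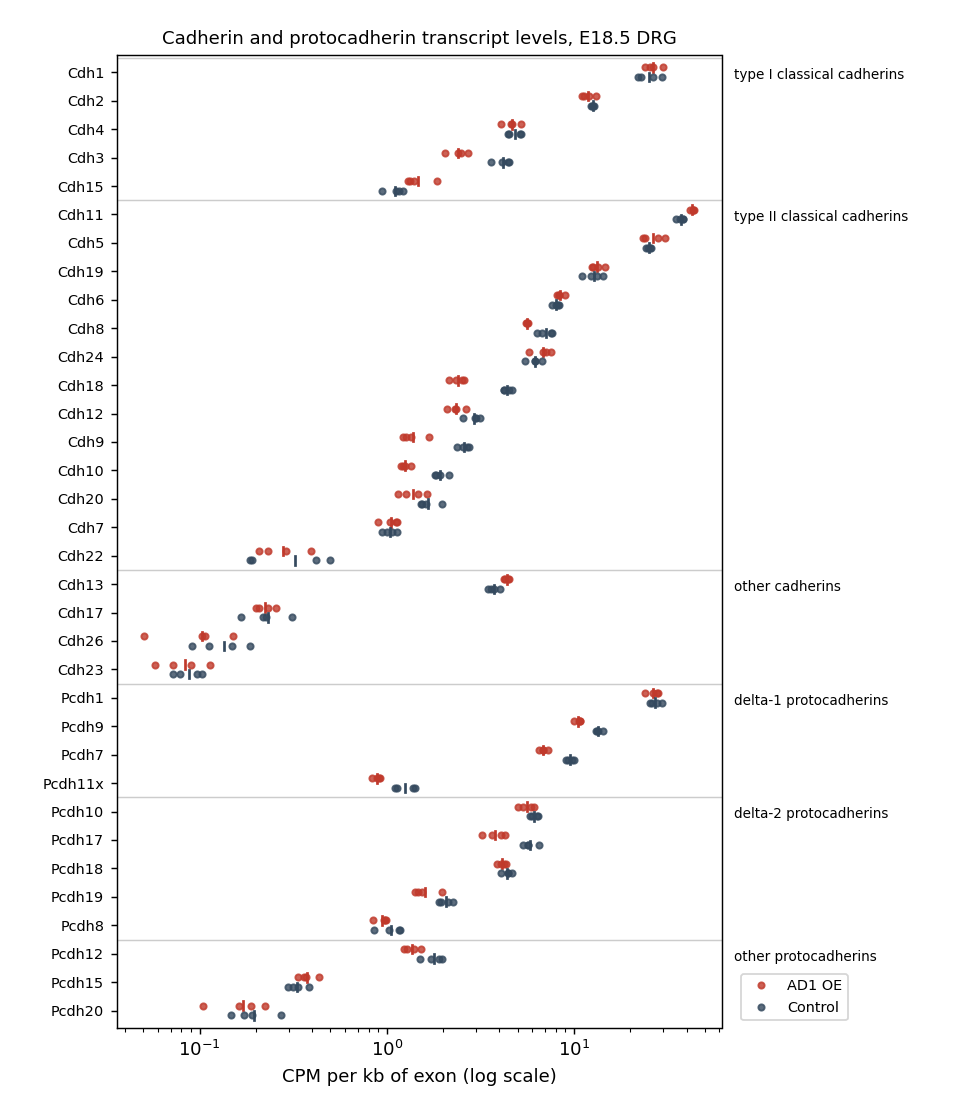
Transcript level of 34 members in each library, in CPM per kb of exon on a log axis, with AD1 OE in red and Control in dark blue, grouped by class; short vertical lines are group means, and Cdh16 is left out because 3 of its libraries hold 0 counts. Cdh11 stands highest in Control at 37.2 CPM per kb and Cdh23 lowest of those drawn at 0.0876 CPM per kb, and the red points of Cdh3, Cdh18, Cdh9, Cdh10, Pcdh17, Pcdh11x, Pcdh7 and Pcdh9 lie left of the blue ones.

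Between the groups, 8 of the 33 tested members (24.2%) were lower in AD1 OE and 0 were higher, in edgeR's quasi-likelihood test. A call required an adjusted p under 0.005 together with a log2 fold change beyond 0.25 in either direction. Over all 17721 tested genes the same rule called 2.57%, with 1.78% lower and 0.784% higher. The 8 called members were Cdh9, Cdh18, Cdh3, Cdh10, Pcdh17, Pcdh11x, Pcdh7 and Pcdh9, and their AD1 OE means ranged from 53.4% to 78.1% of the Control means. With any size of change admitted and the adjusted p only required to be under 0.05, 12 members were lower and 2 were higher (42.4% of those tested). The same applied to 6.55% of all genes, 4.14% lower and 2.42% higher. In 12 members (36.4%, against 13.0% of all genes) the libraries of the groups did not overlap, with AD1 OE lower in 9 of them and higher in 3, against 7.26% and 5.69% of all genes. The median log2 fold change of the tested members was -0.13, and that of all tested genes was 0.00182.

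By class the calls were spread as follows, and differences between classes were not tested. Of the delta-1 protocadherins 3 of 4 were called lower and the median log2 fold change was -0.42, and of the delta-2 protocadherins 1 of 5 was called lower, with a median of -0.16. Of the type II cadherins 3 of 13 and of the type I cadherins 1 of 5 were called lower, with medians of -0.22 and -0.05. No member of the other cadherins (3 tested) or the other protocadherins (3 tested) was called. Log2 fold changes were negative in 11 of 12 protocadherins and in 12 of 21 tested cadherins. Summed over members, the protocadherins gave 555 to 607 CPM in AD1 OE and 661 to 733 CPM in Control without overlap, whereas the cadherins gave 1026 to 1100 CPM and 1026 to 1061 CPM.

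**Figure D2:**
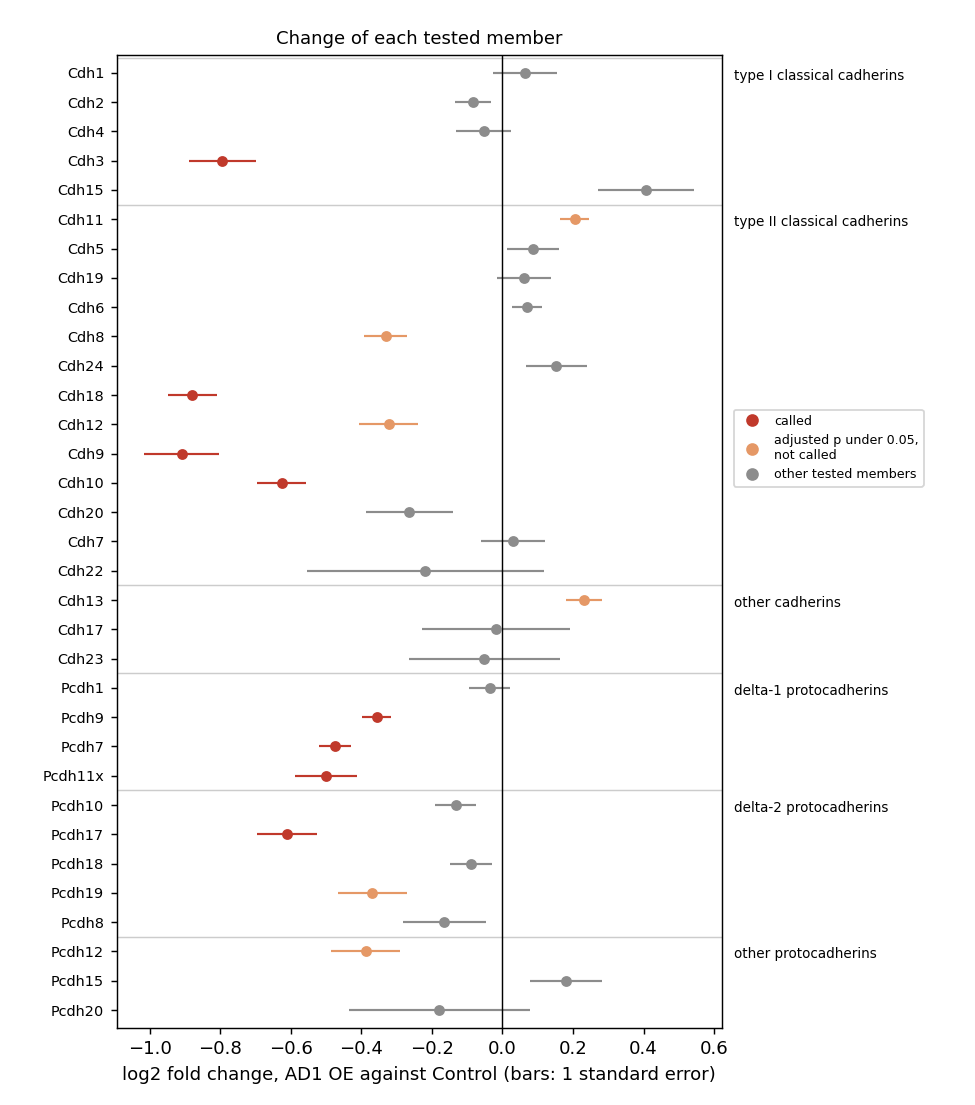
Log2 fold change of AD1 OE against Control for the 33 tested members by class, with bars of 1 standard error; red points are called, orange points have an adjusted p under 0.05 without being called, and grey points are the rest. All 8 red points lie left of 0, from -0.91 for Cdh9 to -0.36 for Pcdh9, and the orange points right of 0 are Cdh11 and Cdh13.

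Of the called type II cadherins, all 3 came from a run of 5 type II genes on chromosome 15, in the order Cdh6, Cdh9, Cdh10, Cdh12 and Cdh18, with 0 other coding genes between neighbours in the GENCODE annotation. The 250 bases upstream of the annotated start of each are shown because some of these adjacent relatives were called and others were not. Differences in response between the 5 genes were not tested, and the uncalled Cdh12 also had a negative log2 fold change (-0.32). They come from RefSeq on GRCm38.p6, at chr15:13173676-13173925 on the minus strand for Cdh6 and, on the plus strand, at chr15:16728665-16728914 for Cdh9, chr15:18820079-18820328 for Cdh10, chr15:21111202-21111451 for Cdh12 and chr15:23036213-23036462 for Cdh18. Capitals mark GC boxes (GGGCGG) and stretches of at least 12 bases that a pair of these windows shares, each read 5′ to 3′ towards the gene. The bases just after the start were found in a GENCODE transcript of the gene for the other 4 but not for Cdh12, whose window rests on the RefSeq start alone.
Cdh6: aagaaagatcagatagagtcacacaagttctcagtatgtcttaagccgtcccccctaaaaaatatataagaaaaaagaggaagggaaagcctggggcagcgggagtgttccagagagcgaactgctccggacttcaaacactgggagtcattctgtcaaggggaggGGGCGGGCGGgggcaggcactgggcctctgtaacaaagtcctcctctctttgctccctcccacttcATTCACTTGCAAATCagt
Cdh9: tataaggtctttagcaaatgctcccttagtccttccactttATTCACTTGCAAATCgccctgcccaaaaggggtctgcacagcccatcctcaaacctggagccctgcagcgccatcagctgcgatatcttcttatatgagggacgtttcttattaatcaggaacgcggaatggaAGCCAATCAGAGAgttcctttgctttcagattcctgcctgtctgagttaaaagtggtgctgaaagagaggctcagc
Cdh10: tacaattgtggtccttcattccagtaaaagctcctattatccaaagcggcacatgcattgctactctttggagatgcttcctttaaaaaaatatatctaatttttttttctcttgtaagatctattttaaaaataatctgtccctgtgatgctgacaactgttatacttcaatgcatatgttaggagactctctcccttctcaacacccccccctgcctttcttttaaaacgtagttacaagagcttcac
Cdh12: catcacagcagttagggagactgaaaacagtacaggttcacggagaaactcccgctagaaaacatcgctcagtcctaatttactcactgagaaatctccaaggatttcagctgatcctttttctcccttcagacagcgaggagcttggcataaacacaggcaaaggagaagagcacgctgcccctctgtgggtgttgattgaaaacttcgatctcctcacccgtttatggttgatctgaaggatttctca
Cdh18: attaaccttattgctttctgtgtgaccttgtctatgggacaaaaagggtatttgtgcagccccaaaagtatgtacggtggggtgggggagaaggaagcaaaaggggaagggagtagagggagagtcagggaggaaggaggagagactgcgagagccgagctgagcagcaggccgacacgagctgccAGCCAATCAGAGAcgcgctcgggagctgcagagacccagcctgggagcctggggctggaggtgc

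The longest stretch in common was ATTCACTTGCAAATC, 15 bases that lay 18 to 4 bases before the start of Cdh6 and 209 to 195 bases before that of Cdh9. Searched on both strands of 32851 RefSeq windows of the same length, it occurred in 2, those of Cdh6 and Cdh9, of which the latter was called and the former was not. AGCCAATCAGAGA, 13 bases that contain a CCAAT box (CCAAT), lay 76 to 64 bases before the start of Cdh9 and 64 to 52 bases before that of Cdh18, and occurred in 31 windows. The other pairs of these 5 windows shared at most 6 to 11 bases.

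The windows of the 3 called genes had no composition in common, with a GC content of 36.8% for Cdh10, 48.0% for Cdh9 and 58.0% for Cdh18, around the median of 52.4% over all windows. Windows were at hand for 22 members, 6 of them called. A CCAAT box on either strand was in those of 4 of 6 called and 10 of 16 other members, against 33.8% of all windows. The GC box was in 1 of 6 called and 8 of 16 other members, against 32.7% of all windows. The TATA box (TATAAA), the E-box CAGGTG and the homeodomain core TAATTA were in 0 of the 6 called members and in 2, 2 and 1 of the 16 others, against 12.4%, 17.2% and 4.84% of all windows. Each match describes letters in these windows and not a bound site.

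Cdh9, a type II cadherin that takes part in matching synaptic partners in the brain, was measured at 4.34, 4.77, 4.51 and 5.94 CPM in AD1 OE replicates 1 to 4 and at 8.37, 9.06, 9.71 and 9.46 CPM in Control replicates 1 to 4. Every AD1 OE library was below every Control library, with the highest AD1 OE value well short of the lowest Control value. The log2 fold change was -0.91 ± 0.105 (SE, edgeR adjusted p = 0.000215). Cdh9 shares 6.3% of its exon length with an antisense gene that had 0 counts in these libraries.

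Cdh18, a type II cadherin of the nervous system, gave 10.6, 11.8, 9.79 and 11.4 CPM in AD1 OE and 19.2, 19.3, 21.2 and 20.5 CPM in Control. The groups were tight and far apart. Its log2 fold change of -0.88 ± 0.0703 (SE) had the smallest adjusted p of any member (edgeR adjusted p = 1.28e-05), and the AD1 OE mean was 54.5% of that in Control.

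Cdh10, another type II cadherin of neurons, gave 12.005, 12.6, 12.3 and 13.5 CPM in AD1 OE and 21.6, 18.3, 19.4 and 18.53 CPM in Control. The AD1 OE libraries were all lower and varied less than the Control libraries. This gave a log2 fold change of -0.63 ± 0.0702 (SE, edgeR adjusted p = 0.000176).

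The remaining genes of the run did not pass the rule. Cdh12, which lies between Cdh10 and Cdh18, gave 14.7, 16.7, 13.2 and 14.6 CPM in AD1 OE and 16.1, 18.8, 18.9 and 19.97 CPM in Control. The second AD1 OE library exceeded the first Control library, so that the groups overlapped, and the log2 fold change was -0.32 ± 0.0835 (SE, edgeR adjusted p = 0.0405). In 16 other fits the adjusted p of Cdh12 ranged from 0.00769 to 0.125 and was under 0.05 in 8, and it reached 0.125 without Control replicate 4. Cdh6, a cadherin of neural crest and its derivatives at the other end of the run, was the most abundant of the 5 in CPM per kb and gave 73.7 to 81.2 CPM in AD1 OE and 69.1 to 74.9 CPM in Control, with a log2 fold change of 0.07 ± 0.0423 (SE, edgeR adjusted p = 0.417).

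Other chromosomes also held called and uncalled members side by side. On chromosome 8, Cdh3 was called and Cdh1, separated from it by 1 coding gene, was not. On chromosome 14, Pcdh9 and Pcdh17 were called, while Pcdh20 between them had a log2 fold change of -0.18 ± 0.257 (SE) at about 1 CPM, and Pcdh8 one of -0.16 ± 0.118 (SE).

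**Figure D3:**
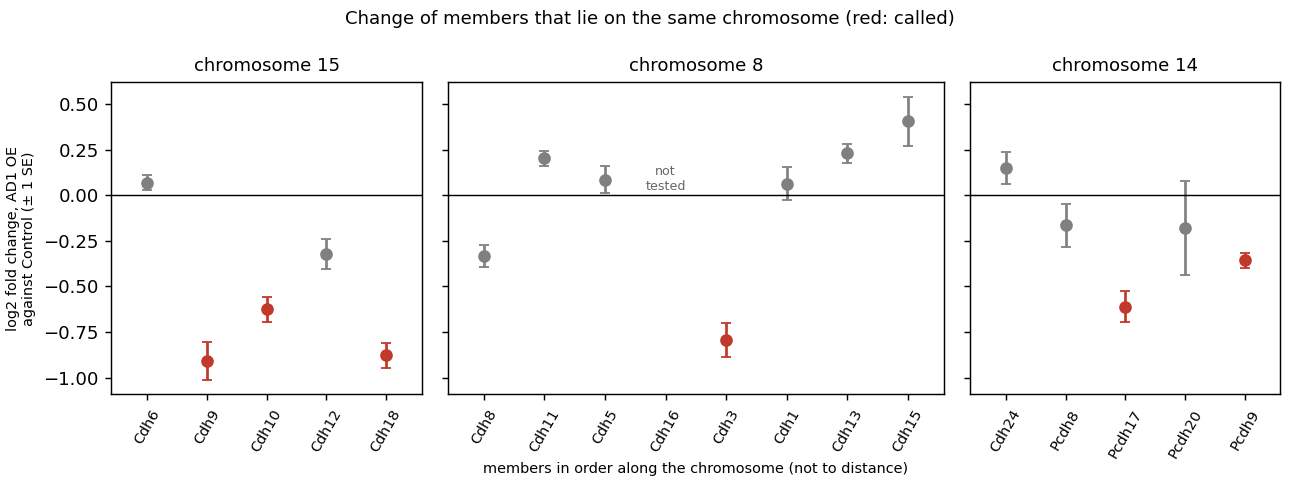
Log2 fold change of AD1 OE against Control, with bars of 1 standard error, for members in their order along chromosomes 15, 8 and 14 (spacing is not to distance); red points are called. On chromosome 15 the values run from 0.07 for Cdh6 through -0.91, -0.63 and -0.32 for Cdh9, Cdh10 and Cdh12 to -0.88 for Cdh18, and on chromosome 8 Cdh3 at -0.79 is the lowest.

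Among the delta-1 protocadherins, which share a cytoplasmic motif that binds protein phosphatase 1, Pcdh7, Pcdh9 and Pcdh11x were lower in AD1 OE. In a separate RNA-seq comparison of E18.5 ganglia, the study listed Pcdh7 and Pcdh11x among genes that were higher after loss of Dach1. That comparison used a looser rule with an unadjusted p and was not analysed here. Pcdh7, also known as NF-protocadherin and linked to axon growth, gave 69.1, 77.4, 72.9 and 72.3 CPM in AD1 OE and 106, 103, 99.1 and 96.1 CPM in Control. The groups were separated by more than the whole range within either of them. Its log2 fold change was -0.47 ± 0.0448 (SE, edgeR adjusted p = 4.36e-05). A non-coding gene on the opposite strand covers 21.1% of the exon length of Pcdh7 but had 368 counts in all 8 libraries together.

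Pcdh9 gave 72.9, 73.4, 67.9 and 72.6 CPM in AD1 OE and 91.3, 96.9, 90.0 and 89.0 CPM in Control. No AD1 OE library reached the Control range, and the decrease was the smallest among the called members, with a log2 fold change of -0.36 ± 0.0405 (SE, edgeR adjusted p = 0.000189).

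Pcdh11x, an X-linked member of nervous tissue, gave 12.8, 12.8, 11.6 and 12.4 CPM in AD1 OE and 19.2, 15.9, 15.4 and 19.8 CPM in Control. The AD1 OE libraries were close together and all below the Control libraries, which fell into a higher pair (replicates 1 and 4) and a lower pair. Summed spinal cord markers were also higher in Control replicates 1 and 4, at 32.3 and 25.5 CPM against 15.04 and 19.1 CPM in replicates 2 and 3. Olig1 split this way, with 8.37 and 3.78 CPM against 0.903 and 1.65 CPM. Slc6a5 did as well, with 5.44 and 2.88 CPM against 0.592 and 0.629 CPM. Hoxb8, the most abundant gene of that list, did not, with 12.8 and 15.6 CPM against 12.9 and 15.4 CPM. The part of spinal cord tissue in the values of Pcdh11x was not tested, nor was it for the other called members. The log2 fold change was -0.50 ± 0.0876 (SE, edgeR adjusted p = 0.00422), close to the threshold, and it missed the threshold in 7 of the 8 fits that left out 1 library, with adjusted p-values of up to 0.0171 (without AD1 OE replicate 4); without Control replicate 3 it was 0.00297.

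Pcdh1, the fourth delta-1 member and by CPM per kb the highest protocadherin, gave 212 to 247 CPM in AD1 OE and 225 to 260 CPM in Control. The groups overlapped widely, and the log2 fold change was -0.04 ± 0.0577 (SE, edgeR adjusted p = 0.803).

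Of the delta-2 protocadherins, Pcdh17 was lower in AD1 OE. This regulator of axon extension and synapses gave 55.6, 41.9, 52.7 and 47.2 CPM in AD1 OE and 74.2, 85.0, 69.4 and 73.6 CPM in Control. Both groups were spread out, without meeting. Its log2 fold change was -0.61 ± 0.0849 (SE, edgeR adjusted p = 0.000868).

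Pcdh19, the X-linked gene behind an epilepsy that mainly affects females, gave 16.1, 14.9, 20.5 and 15.4 CPM in AD1 OE and 22.2, 23.7, 20.5 and 19.995 CPM in Control. The third AD1 OE library reached the Control range and was the only female one of its group. The log2 fold change was -0.37 ± 0.0984 (SE, edgeR adjusted p = 0.0465), and without AD1 OE replicate 3 it was -0.47 (edgeR adjusted p = 0.00252), which passed the rule. With sex as a covariate it was -0.24 (edgeR adjusted p = 0.129). Over 16 other fits the adjusted p ranged from 0.0019 to 0.141, the highest without Control replicate 2, and was under 0.05 in 6.

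The other delta-2 members were Pcdh10, a WAVE-binding protocadherin with roles in axon growth, Pcdh18 and Pcdh8. Pcdh10 had a log2 fold change of -0.13 ± 0.0586 (SE), Pcdh18 of -0.09 ± 0.0607 (SE) and Pcdh8 of -0.16 ± 0.118 (SE), and the groups overlapped for each. Pcdh12, a protocadherin of endothelium, gave 7.78, 7.53, 8.49 and 9.25 CPM in AD1 OE and 9.18, 10.4, 11.5 and 11.97 CPM in Control, with 1 AD1 OE library just above the lowest Control library. Its log2 fold change was -0.39 ± 0.0976 (SE, edgeR adjusted p = 0.0355). The adjusted p of Pcdh12 was under 0.05 in 10 of 16 other fits and ranged from 0.00797 to 0.12, the highest without AD1 OE replicate 1.

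Among the type I cadherins, Cdh3, the P-cadherin of epithelia, was lower in AD1 OE. It gave 10.9, 10.6, 11.9 and 8.99 CPM in AD1 OE and 15.8, 19.8, 18.1 and 19.5 CPM in Control. The groups did not overlap, and the first Control library was lower than the other 3. This gave a log2 fold change of -0.79 ± 0.0947 (SE, edgeR adjusted p = 0.000272). Summed markers of epithelium came to 1.87 to 4.07 CPM in AD1 OE and 1.62 to 9.59 CPM in Control (36.6% of Control by the means, exact permutation test, two-sided, p = 0.143) and every sum was below the lowest Cdh3 value of its group. The first Control library was also the lowest of its group in these markers, at 1.62 CPM against 6.44 to 9.59 CPM. It was likewise the lowest of its group for Cdh9 and Cdh18. In AD1 OE these markers were highest in replicate 1, at 4.07 CPM, and Cdh3 in replicate 3, at 11.9 CPM. The part of epithelial markers in the change of Cdh3 was not tested. The study also reported lower Cdh3 in AD1 OE on sections of E18.5 ganglia, by staining or in situ hybridization.

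The more abundant type I members did not differ beyond the spread of the libraries. Cdh1 gave 137, 117, 121 and 109 CPM in AD1 OE and 101, 121, 104.7 and 136 CPM in Control, so that the groups covered the same range, and its log2 fold change was 0.06 ± 0.0901 (SE, edgeR adjusted p = 0.768). Cdh2 had a log2 fold change of -0.08 ± 0.0511 (SE) at a Control mean of 102 CPM, and Cdh4, the R-cadherin of retina and brain, one of -0.05 ± 0.0783 (SE) at 35.0 CPM. Cdh15, the M-cadherin of muscle precursors, gave 4.23, 4.32, 6.01 and 4.57 CPM in AD1 OE and 3.64, 3.77, 3.97 and 3.05 CPM in Control. Its AD1 OE libraries were all higher, with a log2 fold change of 0.41 ± 0.137 (SE) that did not pass (edgeR adjusted p = 0.121). With sex as a covariate it was 0.59 (edgeR adjusted p = 0.00918), which passed 0.05 but not the threshold for a call, and the adjusted p in the other fits was up to 0.265 (without Control replicate 4).

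Of the type II and other cadherins outside the run on chromosome 15, 3 had an adjusted p under 0.05. Cdh8, a type II cadherin of retinal and sensory circuits, gave 42.8, 43.7, 43.6 and 44.2 CPM in AD1 OE and 49.1, 59.3, 58.7 and 52.0 CPM in Control. The AD1 OE libraries were nearly equal and all below the Control libraries. The log2 fold change was -0.33 ± 0.0606 (SE), and its adjusted p just missed the threshold (edgeR adjusted p = 0.00557), which it passed without Control replicate 1 (edgeR adjusted p = 0.0014).

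Cdh11 and Cdh13 were the members with a positive change and an adjusted p under 0.05, and neither was called. Cdh11 gave 383.5, 390.5, 383 and 370 CPM in AD1 OE and 330.3, 340.0, 343 and 312 CPM in Control, and all AD1 OE libraries were higher. The log2 fold change was 0.20 ± 0.0421 (SE, edgeR adjusted p = 0.0119). Cdh13, the T-cadherin that is held in the membrane by a lipid anchor, gave 50.8, 49.9, 47.7 and 48.0 CPM in AD1 OE and 39.3, 40.6, 41.9 and 45.4 CPM in Control, again without overlap. Its log2 fold change was 0.23 ± 0.052 (SE, edgeR adjusted p = 0.0197). For Cdh13 the adjusted p was 0.05 or more in 5 of 16 other fits, namely 0.0792 with sex as a covariate, 0.0555 with the replicate number as a block, and 0.0765, 0.0506 and 0.0692 without AD1 OE replicate 1, AD1 OE replicate 2 and Control replicate 2, over a range from 0.00195. For Cdh11 it stayed under 0.05 in all 16, at up to 0.0427. Both changes were below the limit on the fold change. Summed fibroblast markers were 6301 to 7069 CPM in AD1 OE and 5427 to 6564 CPM in Control (111% of Control, exact permutation test, two-sided, p = 0.0571). The list was mixed. Col1a1, Col1a2, Col3a1, Pdgfra and Postn stood at 103% to 117% of Control, and Dcn and Lum at 89.8% and 92.1%. The correlation of Cdh11 with these markers across libraries is given below, and their part in the values of Cdh11 and Cdh13 was not otherwise tested.

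Of the other type II members, Cdh5 had a log2 fold change of 0.09 ± 0.0731 (SE), Cdh19 of 0.06 ± 0.0767 (SE), and Cdh7, Cdh20, Cdh22 and Cdh24 lay between -0.26 and 0.15, each with overlapping groups. Cdh17, the intestinal LI-cadherin, had one of -0.02 ± 0.209 (SE) at about 1 CPM, Cdh23 one of -0.05 ± 0.215 (SE) and Pcdh15 one of 0.18 ± 0.101 (SE).

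**Figure D4:**
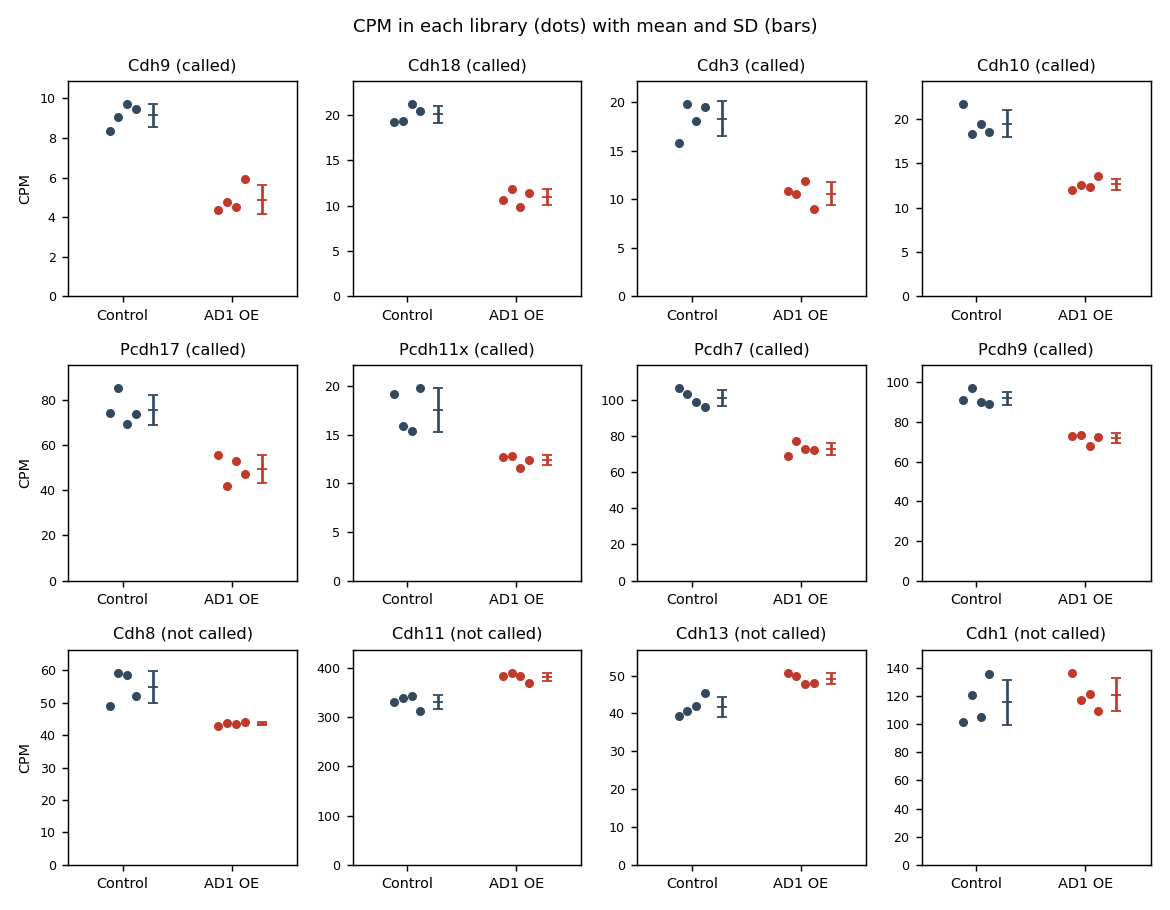
CPM of the 8 called members, of Cdh8, Cdh11 and Cdh13, which have an adjusted p under 0.05, and of Cdh1 in each library (dots, replicates 1 to 4 from left to right) with the group mean and SD beside them; every axis starts at 0. The groups do not overlap in any panel but that of Cdh1, and in the 8 called members and Cdh8 the AD1 OE dots lie below.

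Because sex was unevenly spread, the called members were also compared within each sex. All 8 were lower in the female AD1 OE library than in the mean of the 3 female Control libraries, and all 8 were lower in the mean of the 3 male AD1 OE libraries than in the male Control library. For the X-linked Pcdh11x these values were 11.6 against 15.4 to 19.2 CPM in females and 12.4 to 12.8 against 19.8 CPM in males. For the X-linked Pcdh19 they were 20.5 against 20.5 to 23.7 CPM in females, where the difference was within the range of the Control libraries, and 14.9 to 16.1 against 19.995 CPM in males. With 1 library on a side, these comparisons carry no test. In the edgeR fit with sex as a covariate each of the 8 kept its call.

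Whole ganglia mix neurons, glia, vessels and connective tissue, so members of known cell types were set beside marker genes of those types. Fewer cells of a type and less RNA per cell cannot be told apart in such samples. From counts of Islet1, Prdm12, TrkB and TrkC neurons on E18.5 sections, the study reported that the main neuron types arose in appropriate numbers in AD1 OE. Summed markers were 97.8% of Control for sensory neurons (exact permutation test, two-sided, p = 0.314), 96.8% for glia (exact permutation p = 0.543), 98.0% for endothelium (exact permutation p = 0.429) and 101% for mural cells (exact permutation p = 0.686), with overlapping groups in each case. Among neuron classes, peptidergic nociceptor markers summed to 1130 to 1234 CPM in AD1 OE and 1419 to 1451 CPM in Control (82.6%, exact permutation p = 0.0286, the smallest the design allows, and 0.248 after adjustment over 13 lists). Sums of the markers of non-peptidergic nociceptors (101%), TrkB LTMR (106%) and proprioceptors (98.6%) overlapped between groups, although 5 of 8, 2 of 7 and 1 of 6 of their genes were called lower and 1, 1 and 0 higher. With every gene weighted equally the first 2 of these stood at 69.0% and 85.0% of Control. The genes called higher were Plxnc1 (0.55 on the log2 scale) for non-peptidergic nociceptors and Mef2c (0.38) for TrkB LTMR. Of the peptidergic markers 3 were called lower and Gal (0.42) higher. The part of these neuron classes in the lower levels of the 8 called members was not tested. Macrophage markers summed to 93.9% of Control (exact permutation p = 0.314), skeletal muscle markers to 99.5% (exact permutation p = 1, and 59.5% without AD1 OE replicate 3, which held 626 CPM) and spinal cord markers to 65.9% (15.2 ± 1.43 against 23.0 ± 7.54 CPM, exact permutation p = 0.0571).

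Across the 8 libraries, 6 pairs of a member and a marker list were compared. Cdh5 followed the endothelial markers most closely, with Pearson r = 0.752 (exact permutation p = 0.0321, adjusted over the 6 pairs 0.192) and Spearman rho = 0.69 (exact permutation p = 0.0694, adjusted 0.416). Without the 2 AD1 OE libraries farthest from the median marker level r fell to 0.153, so the relation rested on these. On residuals from the group means r was 0.891 (permutation p = 0.00444). Residuals were permuted across both groups although they are centred within each, so p-values on residuals, here and below, are approximate. Pcdh12 did not follow the same markers, with r = 0.0177 (exact permutation p = 0.967, adjusted 0.967), rho = 0 and r = 0.309 without the same 2 libraries, and -0.302 on residuals (permutation p = 0.482).

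For Cdh19 and glia r was 0.449 (exact permutation p = 0.264, adjusted 0.528) and rho 0.238 (exact permutation p = 0.582), and r was 0.0822 without the 2 farthest libraries and 0.549 on residuals (permutation p = 0.166). For Cdh15 and skeletal muscle r was 0.467 (exact permutation p = 0.242, adjusted 0.528) and rho 0.0476 (exact permutation p = 0.935), with 0.805 on residuals (permutation p = 0.016) and -0.0764 without AD1 OE replicate 3, the library richest in muscle transcripts, and Control replicate 1. For Cdh11 and fibroblasts r was 0.242 (exact permutation p = 0.598, adjusted 0.898), rho 0.357 (exact permutation p = 0.389) and r without the 2 farthest libraries 0.487, with -0.521 on residuals (permutation p = 0.165). For Pcdh18 and mural cells r was 0.0466 (exact permutation p = 0.907, adjusted 0.967), rho -0.0238 (exact permutation p = 0.977) and r without the 2 farthest libraries -0.507, with 0.0322 on residuals (permutation p = 0.939). None of the 6 relations passed after adjustment.

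Cdh1 stood far above the 6 epithelial markers, at 101 to 137 CPM over the 8 libraries, while the markers summed to 1.87 to 4.07 CPM in AD1 OE and 1.62 to 9.59 CPM in Control. Epcam, a surface protein of most epithelia, stood at 0.216 to 0.720 CPM. The keratin Krt8 was at 7.35, 7.55 and 3.98 CPM in Control replicates 2, 3 and 4 and at 0.270 to 0.971 CPM elsewhere, and its partner Krt18 reached 1.41 CPM. Krt5 (1.83 CPM) and Cldn4 (0.475 CPM) were highest in AD1 OE replicate 1, the library with the highest Cdh1 (137 CPM), and each was at 0 in at least 1 Control library. Control replicate 4 nearly matched that library in Cdh1 (136 CPM), with Krt5 at 0.0565 CPM and Cldn4 at 0 CPM. Epcam was highest in Control replicate 1, the library with the lowest Cdh1. The part of epithelial cells in the level of Cdh1 was not tested.

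**Figure D5:**
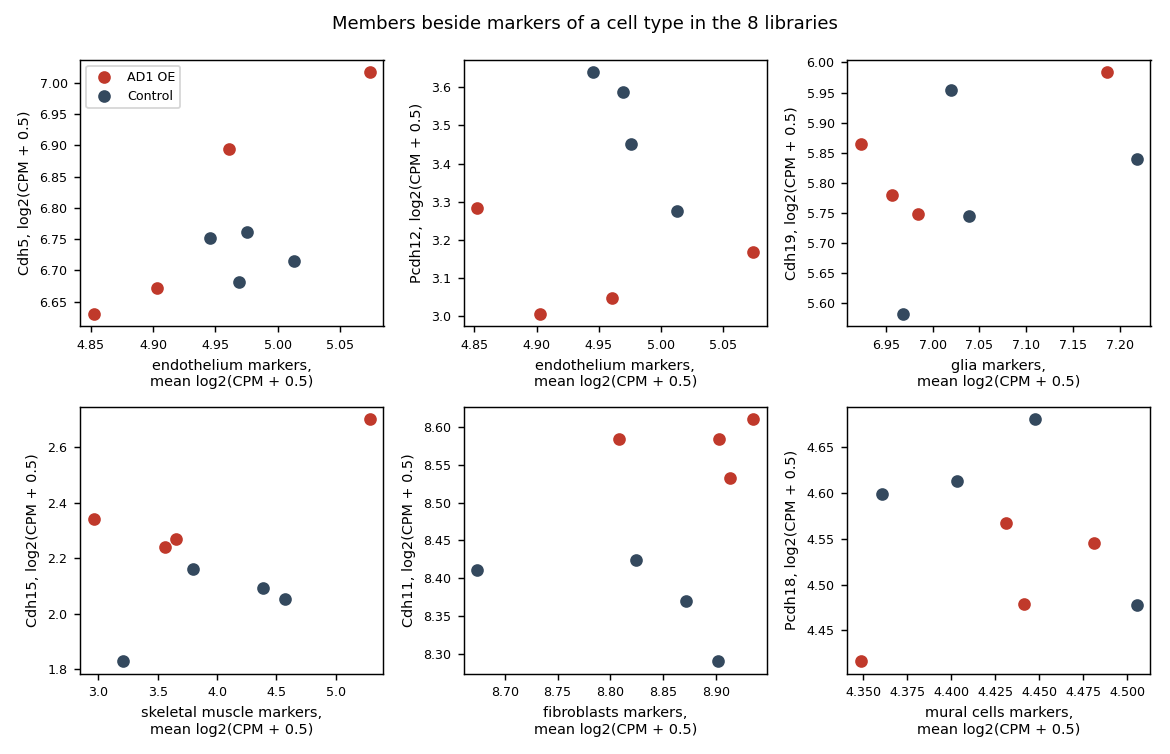
Level of 6 members against the mean level of a cell type's markers in the 8 libraries, both as log2(CPM + 0.5), with AD1 OE in red and Control in dark blue. The closest relation is that of Cdh5 and the endothelial markers (r = 0.752), which rests on 2 AD1 OE libraries, the other 5 panels have r from 0.0177 to 0.467, and no panel's relation passed after adjustment.

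Cytoplasmic partners and processing enzymes of these proteins were tested in the same fit. Of 26 tested genes for catenins, linkers, processing enzymes, WAVE subunits and tip-link partners, 0 were called by edgeR, DESeq2 or limma-voom. By the same rule edgeR called 2.57% of all tested genes. An unadjusted p under 0.05 in edgeR was found for 11 of the 26 (42.3%) and for 18.6% of all tested genes. An adjusted p under 0.05 was reached by 5 of them (19.2%, against 6.55% of all genes), 4 lower and 1 higher. Cyfip2, a WAVE subunit, had a log2 fold change of -0.24 (edgeR adjusted p = 0.00698), Ctnna2, the neuronal alpha-catenin, of -0.21 (edgeR adjusted p = 0.0229), Pkp4, a p120-related catenin, of -0.18 (edgeR adjusted p = 0.0433) and Cib2, a partner of the hair cell channel, of -0.28 (edgeR adjusted p = 0.0461). Afdn, which links adhesion sites to actin, had one of 0.21 (edgeR adjusted p = 0.00788). Cyfip2 was called without Control replicate 1. Ctnnb1, Ctnna1 and Ctnnd1, the beta-, alpha- and p120-catenin that serve classical cadherins in most cells, did not reach an adjusted p under 0.05, and the median of the catenin and linker list was 0.04. Tmc1, Tmc2 and Ush1c did not pass the filter on low counts, and Arvcf was not analysed here.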

How the data were processed

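DRG were dissected at E18.5 from 4 AD1 OE and 4 Control samples, and RNA libraries were sequenced by the Illumina method. Per the submitters' processing notes, the authors used bcl2fastq 2.20.0.422, STAR 2.7.8a, featureCounts 2.0.1 and the GRCm39 genome, and they deposited raw counts per Ensembl gene and library, unfiltered and not pooled. Whether counting used the strand is not given in the sources used here, so genes that overlap on opposite strands may share reads, and 7 members share exon bases with a non-coding gene. Symbols, chromosomes, gene order and exon length came from GENCODE M21 on GRCm38, an older build, through the gene IDs, of which 52081 of 55414 had a symbol. Promoter windows came from RefSeq on GRCm38.p6.

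Genes were kept by filterByExpr and scaled by TMM in edgeR 4.0.16 (R 4.3.3), and the groups were compared in a quasi-likelihood F test without covariates. Its p-values were adjusted over 17721 genes by the Benjamini-Hochberg method. The thresholds for a call, 0.005 for the adjusted p and 0.25 for the absolute log2 fold change, follow the study. CPM were computed from TMM-scaled totals. The common biological coefficient of variation was 8.22%. Scripts were tested on simulated data. Marker sums and correlations were tested by exact permutation with Python 3.11.15 and scipy 1.17.1. Residuals were permuted across both groups, so their p-values are approximate. Depth was 22339059 to 44025625 counts. Reads carried no molecular identifiers, so counts of a few reads have counting error at the least.

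The members, role groups, partner lists, marker lists and motifs were chosen with earlier results of these data known. The text names called members, members with an adjusted p under 0.05, the 8 with the highest level per kb, members typical of a cell type or X-linked, and members below the filter. Markers with called changes, Epcam, Cldn4, Krt5, Krt8, Krt18 and the abundant catenins were named after their values were seen. Groups came from the titles and genotypes in the labels. Alternatives were DESeq2 1.42.0, limma-voom (limma 3.58.1), RLE or no composition scaling, other expression filters and thresholds, sex as a covariate, the replicate number as a block, and leaving out each library.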

Additional observations from a re-analysis of the deposited data

Results flagged for a closer look

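In groups of 4 libraries, a value was singled out when its gap to the nearest other library took up more of the group's range than Dixon's 95% limit allows, which chance gives in about 1 in 20 groups. This held for 5 of 92 groups. Pcdh8 stood at 3.81 CPM in AD1 OE replicate 4 and at 4.37 to 4.48 CPM in the other AD1 OE libraries. Pcdh9 stood at 67.9 CPM in AD1 OE replicate 3, below the 72.6 to 73.4 CPM of the other AD1 OE libraries and thus farther from Control. Sensory neuron markers summed to 7803 CPM in Control replicate 2 and to 7570 to 7600 CPM in the other Control libraries. Epithelial markers summed to 4.07 CPM in AD1 OE replicate 1 and to 1.87 to 2.14 CPM in the other AD1 OE libraries, and spinal cord markers to 17.3 CPM in AD1 OE replicate 3 against 14.3 to 14.5 CPM.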

How the results depend on the processing

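Cdh9, Cdh18, Cdh3, Cdh10, Pcdh17, Pcdh7 and Pcdh9 stayed called in all 16 other fits, and 7 to 10 members were called in each, none of them higher. Pcdh11x lost its call in 10 of the 16 (adjusted p up to 0.0171). Cdh8 was also called by DESeq2, without an expression filter and without Control replicate 1, and Pcdh19 without a filter and without AD1 OE replicate 3. Over all genes, 747 instead of 455 were called without a filter and 289 without AD1 OE replicate 1. At an adjusted p under 0.05 alone 14 members were called, and 0 with an added absolute log2 fold change over 1. The cause of these differences was not tested.

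Replicate numbers are shared by the groups, but deviations of libraries with the same number did not go together (r = -0.01, -0.05, -0.04 and 0.31), so the numbers do not pair them. With the number as a block, 7 members and 348 genes were called.

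The members' median log2 fold change was -0.10 with sex as a covariate and -0.18 to -0.11 when 1 library was left out. Of the partners, 0 to 1 were called when 1 library was left out and 5 at an adjusted p under 0.05 alone.

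Log2 fold changes of uncalled members near 0 changed sign. With sex as a covariate they were -0.00971 for Cdh1, 0.0415 for Cdh17, 0.0304 for Cdh4 and -0.024 for Cdh7, and limma-voom gave 0.0195 for Cdh17. Leaving out 1 library gave -0.000888 to 0.16 for Cdh1, -0.15 to 0.14 for Cdh17, -0.00209 to 0.13 for Cdh19, -0.42 to 0.0276 for Cdh22, -0.26 to 0.0775 for Cdh23, -0.10 to 0.00415 for Cdh4, -0.0162 to 0.10 for Cdh7, -0.0631 to 0.0106 for Pcdh1 and -0.32 to 0.0145 for Pcdh20.

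Marker sums as a percentage of Control, with 1 library left out, were 95.2 to 99.5 for endothelium, 28.8 to 42.4 for epithelium, 91.7 to 101 for glia, 99.6 to 103 for mural cells, 98.7 to 104 for non-peptidergic nociceptors, 94.7 to 102 for proprioceptors, 96.0 to 99.0 for sensory neurons, 59.5 to 118 for skeletal muscle and 59.1 to 76.1 for spinal cord. By the mean log2 CPM of the detected markers, which weights each gene equally, the percentages were 85.0 for TrkB LTMR, 69.0 for non-peptidergic nociceptors, 99.7 for mural cells and 101 for sensory neurons, and without composition scaling 101 for skeletal muscle. On residuals from the group means, r was -0.521 for Cdh11 and fibroblasts, 0.805 for Cdh15 and skeletal muscle and -0.302 for Pcdh12 and endothelium, and with the log2 of the summed CPM it was -0.101 for Pcdh18 and mural cells.

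With 4 libraries a group, a marker sum cannot reach an exact p below 0.0286, and for Cdh16 and Cdh26 a difference was not detectable at this depth.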
